A study of Mus musculus with 18 samples.

Results

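The liver transcriptome of diet-induced obese (DIO) mice given PaPE-1 was compared with that of DIO mice given vehicle. The comparison used 6 of the 18 liver RNA-seq libraries of the series, 3 from PaPE-1 mice (WP11, WP12 and WP24) and 3 from vehicle mice (WV7, WV8 and WV9), each from the liver of a separate animal, and values below follow this library order. Of 40840 annotated genes, 13604 passed the filter on low counts and were tested. All 6 animals were female wild-type C57BL/6 mice kept on a high-fat diet (fat gave 45% of its calories, and cholesterol made up 0.2%), were ovariectomized after the opening week of that diet, and carried an osmotic minipump for 6 weeks. The pumps delivered PaPE-1 at 300 µg/kg/day or vehicle, a mixture of DMSO, ethanol and saline. The series also holds DIO mice given 17β-estradiol (E2) at 5 µg/kg/day and the same 3 treatments in ovariectomized leptin-deficient ob/ob mice on a normal diet. No lean or ovary-intact mice were in the comparison, so it set the compound against vehicle and holds no contrast of the diet or the surgery. Ages are not given in the sources used here, and the labels describe 2 sequenced animals per group where 3 libraries per group were used here.

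PaPE-1 (pathway preferential estrogen 1) is built from the elements of E2 with the key parts of the steroid structure rearranged, and it binds estrogen receptor α (ERα) less tightly than E2. ERα acts as a nuclear transcription factor that binds DNA, and also starts kinase signalling from outside the nucleus, and the compound was designed to favour the extranuclear route. After loss of ovarian estrogen, and on a fatty diet, the liver stores triglyceride in lipid droplets within hepatocytes, which at the same time make most plasma proteins, lipoproteins, bile acids and drug-metabolizing enzymes. Hepatic stellate cells lay down collagen in an injured liver.

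The libraries held 16651616 to 21703791 counted reads. Values below are CPM, read counts scaled to a common library size by the TMM method, and fold changes are given as log2 of PaPE-1 over vehicle. Liver markers were abundant: albumin (Alb) stood at 94549, 77453 and 98179 CPM in PaPE-1 livers and at 70611, 61449 and 67217 CPM in vehicle livers, and the hepatocyte factor Hnf4a averaged 425 CPM in PaPE-1 and 430.2 CPM in vehicle livers. WP12 stood between the groups. Its Pearson correlation of log2 CPM across genes was 0.979 to 0.982 with the other PaPE-1 libraries and 0.981 to 0.984 with the vehicle libraries. The highest were those with WV9 (0.984) and WV8 (0.983), and by this measure WP12 was slightly nearer to the vehicle group than to its own. Across genes the median SD of log2 CPM was 0.227 within PaPE-1 and 0.154 within vehicle livers.

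With PaPE-1, 467 genes were higher (3.43% of those tested) and 306 were lower (2.25%) at an adjusted p under 0.05 (edgeR quasi-likelihood test on 6 libraries, Benjamini-Hochberg). Such genes are said below to have risen or fallen. Counts of them in the gene lists below are to be read against these shares. The increases included many genes of secreted hepatocyte proteins, ribosomal proteins, respiratory chain subunits and cytochromes P450. The decreases included some genes of cell division, collagens and chromatin regulators, and 2 of 26 genes of triglyceride synthesis and lipid droplets. These calls sat close to the threshold: the smallest adjusted p in the comparison was 0.0312, which 252 genes shared. They also depended on which libraries entered the fit. No gene passed when the 3 E2 libraries were added to the estimate of the spread (smallest adjusted p 0.0707). There, 1585 higher and 1344 lower genes had an unadjusted p below 0.05, and in the 6 libraries 1870 and 1648 did. DESeq2 on the same 9 libraries called 524 higher and 228 lower.

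Leaving out a library removed every call in 5 of 6 cases, and 617 higher and 310 lower genes passed in the sixth, when WP12 was left out. In the 5 fits without WP11, WP24, WV7, WV8 or WV9, 1278 to 1775 higher and 1164 to 1681 lower genes still had an unadjusted p below 0.05, and the smallest adjusted p was between 0.0605 and 0.0969. All 773 called genes kept their direction in all 6 fits with a library left out and in the 9-library fit. This could hardly have come out otherwise and is no separate support. For each of the 773 the 3 PaPE-1 libraries were all above or all below the 3 vehicle libraries, so no single library set the direction. That pattern was shown upward by 16.8% of tested genes and downward by 15.6%. In the 9-library fit the fold change again rests on the same 6 livers. A fold change over 2 together with an unadjusted p below 0.05 was met upward by 74 genes (0.544%) and downward by 211 (1.55%).

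The direction of change followed exonic length, which counts the bases of all annotated exons of a gene. It can exceed the length of the transcript that the liver expresses. Short and long transcripts below are meant by this measure. The median log2 fold change was 0.41 in the shortest of 10 equal classes of exonic length (median 945 bases) and -0.29 in the longest (median 12647 bases), and it was lower in each next class between. In the shortest class 239 genes rose and 4 fell, and in the longest 5 rose and 106 fell. Genes that rose had a median exonic length of 1292 bases, genes that fell 7735.5 bases and uncalled genes 3686 bases.

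The slope of log2 fold change on log2 length was -0.165 per doubling of length in DIO livers and -0.007 in ob/ob livers given the same compound. Relative to each gene's mean over the 6 libraries, the slope within a library was -0.108, -0.046 and -0.086 in PaPE-1 livers, against 0.094, 0.0995 and 0.047 in vehicle livers. The libraries of the groups did not overlap, with means of -0.080 ± 0.031 in PaPE-1 and 0.080 ± 0.029 in vehicle livers (SD, n = 3 each), and an exact two-sided permutation test gave p = 0.1, the smallest that 3 against 3 allows. Slopes of this size also occurred within a treatment: with 9 DIO libraries as the common mean, the 3 E2 livers had slopes of 0.138, -0.054 and 0.007. RNA integrity values are not given in the sources used here, and the part of RNA quality or library preparation in the length trend was not tested.

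**Figure D1:**
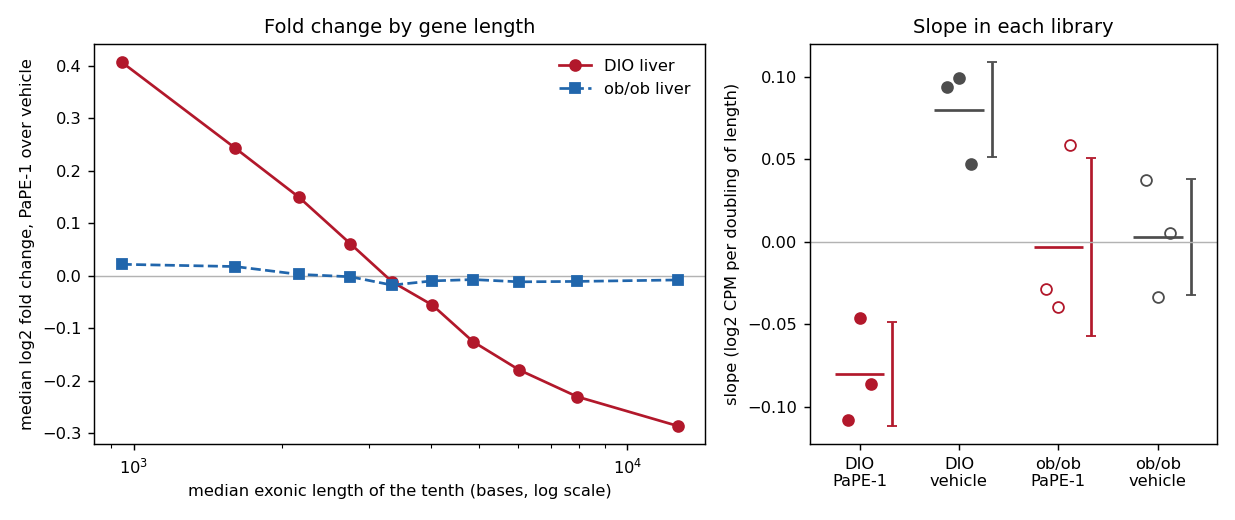
Left, median log2 fold change (PaPE-1 over vehicle) in 10 classes of tested genes ordered by exonic length in bases (log axis), for DIO and ob/ob livers. Right, slope per doubling of length in each DIO (filled points) and ob/ob (open points) library, with group mean and SD as bar and line. The DIO medians descend to -0.29 in the longest class, and ob/ob medians stay near 0. The 3 DIO PaPE-1 slopes lie below the 3 DIO vehicle slopes, and the ob/ob slopes overlap.

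A second set of fold changes was therefore computed after a smooth length trend had been taken out of each library, and it is given below as the length-adjusted value. The 773 called genes all kept their sign in it, and the median log2 fold change of the genes that rose was 0.65 as counted and 0.43 length-adjusted. For genes that fell it was -0.72 as counted and -0.50 length-adjusted. Only 12 genes (0.0882%) had an adjusted p under 0.05 in that fit, 8 higher and 4 lower. The median over all tested genes was -0.02 as counted and 0.04 length-adjusted, and 47.7% and 56.3% of genes lay above 0 on these scales.

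The 12 genes that passed in both fits are named as a complete set and include several metabolic enzymes. Alas1 (chr9:106110654-106125153, GRCm39), the rate-limiting enzyme of heme synthesis, had 982, 688 and 861 CPM in PaPE-1 livers, against 351, 359 and 373 CPM in vehicle livers. Every PaPE-1 liver was well above the vehicle livers, which were nearly even, and Alas1 rose by 1.23 ± 0.15 log2 units (SE, adjusted p = 0.0312, edgeR; length-adjusted 1.26). Tspan4 (chr7:141055149-141073340), a tetraspanin, had 55.9, 58.2 and 64.9 CPM in PaPE-1 livers, against 28.5, 25.4 and 32.5 CPM in vehicle livers. It had the smallest unadjusted p of all genes tested and rose by 1.05 ± 0.13.

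Acot3, a peroxisomal acyl-CoA thioesterase, had 559, 821 and 617 CPM in PaPE-1 livers, against 345, 284 and 339 CPM in vehicle livers (log2 fold change 1.05 ± 0.17). Usp2, a deubiquitinase whose transcript cycles with the clock, had 44.5, 56.7 and 57.0 CPM in PaPE-1 livers, against 26.5, 24.3 and 14.9 CPM in vehicle livers (1.27 ± 0.21). The 4 other increases were Ccdc85b (0.97), Mrpl14 of the mitochondrial ribosome (0.64), Gm15411 (0.76) and Map2k6 (0.80), a kinase upstream of p38. Their length-adjusted values were 1.10, 0.88, 1.10 and 1.10. The adjustment thus raised all 4, whose exonic lengths were 4401 to 18344 bases. The groups did not overlap for any of these 8 genes.

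Of the 4 decreases, Gldc (chr19:30075841-30152841), the decarboxylase of the glycine cleavage system, had 80.0, 88.4 and 81.6 CPM in PaPE-1 livers, against 144, 159 and 165 CPM in vehicle livers, and fell by 0.90 ± 0.12. Cidec (chr6:113401595-113412721), which fuses lipid droplets into larger ones, had 4.62, 7.63 and 5.20 CPM in PaPE-1 livers, against 19.2, 15.1 and 14.7 CPM in vehicle livers, a log2 fold change of -1.48 ± 0.20. The highest PaPE-1 value of Cidec was below every vehicle value. Dhrs9, a short-chain dehydrogenase of retinol and steroids, had 0.237, 0.338 and 0.203 CPM in PaPE-1 livers, against 1.474, 1.779 and 2.696 CPM in vehicle livers (-2.87 ± 0.41). Its PaPE-1 values were near the level of 3 counts (0.145 to 0.203 CPM), and it passed the count filter through the vehicle livers only. Ly6d had 6.58, 4.78 and 5.81 CPM in PaPE-1 livers, against 15.7, 15.1 and 33.4 CPM in vehicle livers (-1.90 ± 0.33).

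The 12 largest changes in each direction were taken among called genes without overlap between the groups and with at least 1 CPM in either group on average. The increases were those of Vpreb3, Ankrd37, Htra4, Cyp2c54, Serpina1e, Cyp2a5, Sult2a7, Usp2, Alas1, Ppp1r1b, Car1 and Ang, with log2 fold changes of 1.13 to 2.24. Vpreb3, known from B-cell precursors, had 2.07, 2.46 and 2.77 CPM in PaPE-1 livers, against 0.713, 0.434 and 0.385 CPM in vehicle livers. Ankrd37, a hypoxia-inducible gene, had 5.16, 1.88 and 4.53 CPM in PaPE-1 livers, against 0.951, 0.781 and 0.866 CPM in vehicle livers. In WP12 Ankrd37 was far lower than in the other PaPE-1 livers, and still above all vehicle livers.

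Sult2a7, a hydroxysteroid sulfotransferase, had 103, 95.7 and 92.7 CPM in PaPE-1 livers, against 28.1, 42.5 and 48.5 CPM in vehicle livers (log2 fold change 1.29 ± 0.18). Ppp1r1b, the phosphatase inhibitor DARPP-32, had 10.5, 8.26 and 10.7 CPM in PaPE-1 livers, against 4.23, 4.56 and 4.28 CPM in vehicle livers (1.17 ± 0.17). Ang, the secreted ribonuclease angiogenin, had 336, 240 and 468 CPM in PaPE-1 livers, against 125, 159 and 192 CPM in vehicle livers (1.13 ± 0.25). WP12 was the lowest PaPE-1 liver for 2 of these 3. Dctpp1, a nucleotide pyrophosphatase among the 5 increases with the smallest p, rose by 0.82 and was 0.43 length-adjusted.

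By the same rule the 12 largest decreases were those of Dhrs9, Adcy1, Tmc3, A1bg, Sytl5, Prc1, Ly6d, Hells, Chil1, Pclo, Acta2 and Lrrc39, at log2 fold changes of -2.87 to -1.56. Most were scarce transcripts, and several, such as Dhrs9, Adcy1 and Tmc3, averaged 1 CPM or more in the vehicle livers only. A1bg, a plasma glycoprotein that is higher in female than in male mouse liver, was the most abundant and had 8.65, 14.1 and 20.6 CPM in PaPE-1 livers, against 70.3, 40.1 and 77.0 CPM in vehicle livers (-2.12 ± 0.37). The lowest vehicle liver of A1bg was still well above the highest PaPE-1 liver. Sytl5, a Rab27-binding protein of vesicle traffic, had 2.02, 1.93 and 0.879 CPM in PaPE-1 livers, against 9.459, 3.602 and 7.605 CPM in vehicle livers (-2.07 ± 0.41). Adcy1, an adenylyl cyclase, had 0.415, 0.290 and 0.203 CPM in PaPE-1 livers, against 3.99, 0.911 and 1.49 CPM in vehicle livers, where WV7 was the highest by far. Syne1, the nuclear envelope protein nesprin-1 with 45659 exonic bases, was among the 5 decreases with the smallest p and was -0.90 as counted and -0.56 length-adjusted.

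**Figure D2:**
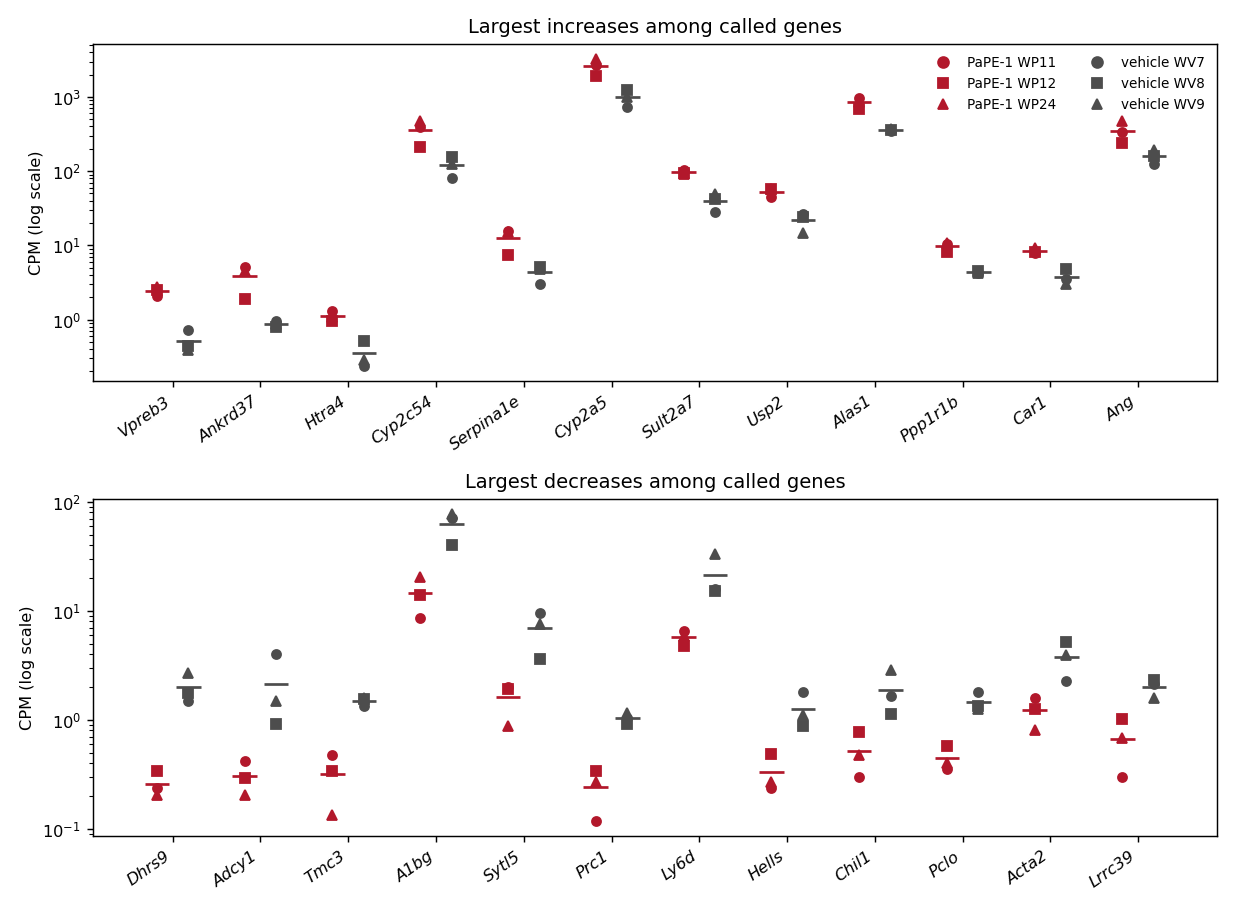
CPM (log axis) in each of the 6 DIO livers for the 12 largest increases (top) and 12 largest decreases (bottom). Points are livers, PaPE-1 left of vehicle within each gene, and lines are group means. Only genes without overlap between the groups were eligible, and most of the decreases lie under 10 CPM.

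Hepatocytes secrete most plasma proteins, and many genes of that role rose. Of 21 genes of abundant secreted proteins 10 rose and 0 fell, against 3.43% and 2.25% of all genes, and the median log2 fold change was 0.63, against -0.02 over all genes tested (length-adjusted 0.36, against 0.04, with 0 of 21 passing in that fit). The summed level of the list was 199887 to 247884 CPM in PaPE-1 livers and 151677 to 167048 CPM in vehicle livers. Serpina1c, an α1-antitrypsin gene, had 2035, 2024 and 2456 CPM in PaPE-1 livers, against 1084, 1256 and 1200 CPM in vehicle livers (0.88 ± 0.14). Rbp4, the plasma carrier of retinol, had 3784, 3428 and 3813 CPM in PaPE-1 livers, against 2516, 2069 and 2238 CPM in vehicle livers (0.69 ± 0.13). Both genes were close to even within each group. Serpina1a rose by 0.94 and Serpina1e by 1.54, and the near-identical copies of this family make the split of reads among them uncertain.

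Of 21 coagulation genes 4 rose and 0 fell, with a median of 0.35 (length-adjusted 0.24). They were Hrg (0.77), histidine-rich glycoprotein, Proc (0.57), the zymogen of the anticoagulant protein C, F7 (0.55), which starts the extrinsic pathway, and Kng1 (0.56), the kininogen. F7 had 158, 152 and 165 CPM in PaPE-1 livers, against 94.5, 117 and 114 CPM in vehicle livers. Of 29 hepatokines and growth factors 5 rose and 0 fell (median 0.38, length-adjusted 0.26), Rbp4 being in this list too. Igfbp2, a carrier of insulin-like growth factors, had 686, 594 and 932 CPM in PaPE-1 livers, against 254, 365 and 397 CPM in vehicle livers (1.12 ± 0.21). Fetub, the fetuin B gene, had 678, 605 and 890 CPM in PaPE-1 livers, against 348, 356 and 384 CPM in vehicle livers (0.997 ± 0.16). WP24 was the highest liver for both. Ahsg, the fetuin A gene, rose by 0.71 and Igfbp4 by 0.69. Of 22 complement genes 0 passed in either direction, with a median of 0.25.

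Among 17 apolipoprotein and VLDL assembly genes 4 rose and 1 fell (median 0.35, length-adjusted 0.24). Apoa1, the main protein of HDL, had 10844, 7734 and 10238 CPM in PaPE-1 livers, against 5905, 5300 and 5905 CPM in vehicle livers (0.75 ± 0.15). Apoc1 rose by 0.77, Apoa2 by 0.63 and Apom by 0.83. The exception was Apoa4, an apolipoprotein whose liver transcript is known to rise with hepatic triglyceride, with 563, 606 and 739 CPM in PaPE-1 livers, against 969, 886 and 1115 CPM in vehicle livers (-0.64 ± 0.15, length-adjusted -0.81). Its direction was opposite to the other 4 and to the trend of short transcripts.

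Cytosolic ribosomal proteins gave the broadest result. Of 83 tested genes 74 rose and 0 fell, and all 83 had a fold change above 0. In 80 the PaPE-1 livers were higher without overlap, against 16.8% of all genes tested. The median log2 fold change was 0.78 (length-adjusted 0.45, with 82 of 83 above 0), and 0 of the 83 passed in the length-adjusted fit. Their summed level was 21297, 15273 and 21467 CPM in PaPE-1 livers, against 11022, 10906 and 11816 CPM in vehicle livers. WP12 stood lower than the other PaPE-1 livers and above all vehicle livers. Many ribosomal protein genes have processed pseudogenes of nearly the same sequence, so levels of single members are uncertain.

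Fau, which encodes the small subunit protein eS30 fused to a ubiquitin-like protein, had 190, 145 and 204 CPM in PaPE-1 livers, against 95.1, 95.3 and 97.6 CPM in vehicle livers (0.90 ± 0.15). Rps27 had 245, 165 and 278 CPM in PaPE-1 livers, against 97.1, 111 and 115 CPM in vehicle livers (1.09 ± 0.19). Rpl28 had 223, 193 and 261 CPM in PaPE-1 livers, against 123, 128 and 132 CPM in vehicle livers (0.83 ± 0.14). In all 3 the vehicle livers were nearly even and the PaPE-1 livers were spread, with WP12 lowest. Rpl36 (0.84) and Rps16 (0.71) rose as well. Of 17 translation factors of the same mRNA class 9 rose and 0 fell (median 0.61, length-adjusted 0.37), among them Eef1d (0.76), an exchange factor of elongation, and Eif3h (0.69), a subunit of initiation factor 3.

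Transcripts of this class carry a stretch of pyrimidines at their 5′ end (the TOP motif), through which mTOR signalling is known to control their translation. Shown here, as examples of the motif in genes that rose, are the 15 bases before and the 15 bases after the annotated start of 3 of the genes above (RefSeq, GRCm38.p6), 5′ to 3′ on the coding strand, with the searched hexamer in capitals.
Fau, chr19:6057932-6057961, plus strand: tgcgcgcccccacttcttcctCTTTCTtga
Rpl28, chr7:4792950-4792979, plus strand: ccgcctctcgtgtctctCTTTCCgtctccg
Rps27, chr3:90213634-90213663, minus strand: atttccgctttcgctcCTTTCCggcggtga
The hexamers CTTTCC and CTTTCT, and likewise CTTTTC and CTTTTT, were searched on the coding strand from 20 bases before to 20 after the start. A match was found in 20 of the 60 ribosomal protein genes with a sequence in the RefSeq table (33.3%), in 3 of 11 of the translation factors, and in 748 of the 10795 tested genes with a sequence (6.93%). A match describes the letters and is not a tested site.

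**Figure D3:**
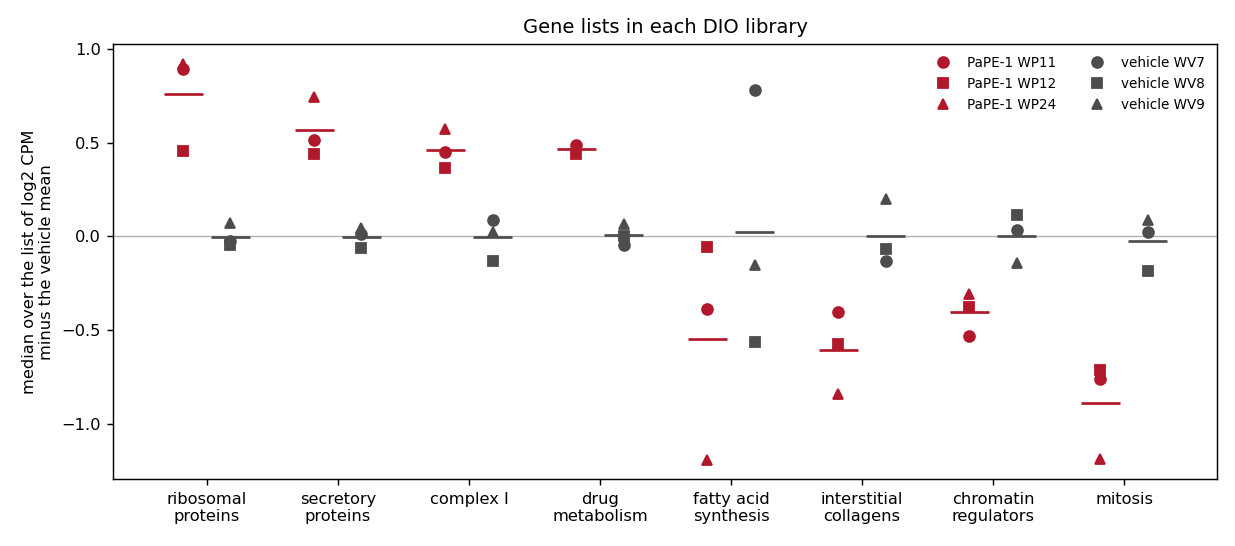
Median over each of 8 gene lists of log2 CPM minus the mean of the vehicle livers, 1 point per liver, PaPE-1 left of vehicle. Ribosomal proteins stand at 0.46 to 0.92 in PaPE-1 livers, mitosis genes at -1.19 to -0.71, and fatty acid synthesis genes at -1.19 to -0.06 in PaPE-1 livers and -0.56 to 0.78 in vehicle livers, where the groups overlap.

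Genes of the mitochondrial respiratory chain, encoded in the nucleus, were among those that rose, by small amounts. Of 38 complex I subunits 11 rose and 0 fell, and 35 were higher without overlap, against 16.8% of all genes tested (median 0.47). Of 13 cytochrome c oxidase genes 3 rose (median 0.47), of 17 ATP synthase genes 5 rose (0.45), of 14 genes of complex II, complex III and cytochrome c 2 rose (0.37) and of 77 mitochondrial ribosomal protein genes 18 rose (0.43). In none of these lists did a gene fall. These are short transcripts, and the length-adjusted medians were 0.15, 0.06, 0.14, 0.12 and 0.19, against 0.04 over all genes.

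Ndufa2, an accessory subunit of complex I, had 83.6, 76.0 and 103 CPM in PaPE-1 livers, against 56.3, 48.2 and 54.7 CPM in vehicle livers (0.72 ± 0.14, length-adjusted 0.33). Etfb, which passes electrons from fatty acid oxidation to the chain, had 433, 364 and 484 CPM in PaPE-1 livers, against 273, 241 and 272 CPM in vehicle livers (0.70 ± 0.14, length-adjusted 0.37). Fdx1, the ferredoxin of mitochondrial P450 enzymes, has a longer transcript and had 122, 113 and 131 CPM in PaPE-1 livers, against 75.3, 73.9 and 78.4 CPM in vehicle livers (0.68 ± 0.12, length-adjusted 0.74). The groups were apart for all 3, and the length adjustment lowered the fold change of the short Ndufa2 and Etfb only. Ndufb4 (0.70), Ndufb10 (0.60), Cox4i1 (0.61), Cox5a (0.58), Cox6c (0.61), Atp5e (0.62), Uqcrh (0.63) and the import pore subunit Tomm7 (0.65) rose. The cytochrome c gene Cycs was 0.11 (adjusted p = 0.762), the outer membrane channel Vdac1 0.16 (0.447), the chaperonin Hspd1 0.19 (0.424) and the prohibitin gene Phb 0.36 (0.116), and these did not pass. Of 14 regulators of mitochondrial biogenesis 0 passed (median 0.08, length-adjusted 0.22). Their coactivator Ppargc1a had 8.12, 10.1 and 5.68 CPM in PaPE-1 livers, against 13.07, 12.67 and 10.97 CPM in vehicle livers (-0.61, adjusted p = 0.0900), and the mitochondrial DNA factor Tfam had 68.7, 64.4 and 69.1 CPM, against 54.5, 55.8 and 56.6 CPM (0.28, adjusted p = 0.145).

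Cytochromes P450 and their partners, which oxidize drugs, steroids and fatty acids with heme as cofactor, were also among the genes that rose. Of 22 drug-metabolizing P450 genes and their receptors 9 rose and 1 fell, and the median of 0.45 was little altered by the length adjustment (0.42). Cyp2a5 had 2706, 1886 and 3214 CPM in PaPE-1 livers, against 734, 1257 and 1009 CPM in vehicle livers (1.38 ± 0.24). Cyp2e1, the ethanol-inducible P450 of pericentral hepatocytes, had 14207, 12311 and 17550 CPM in PaPE-1 livers, against 6529, 9580 and 8080 CPM in vehicle livers (0.87 ± 0.18). Por, the reductase that supplies all microsomal P450 enzymes with electrons, had 676, 1044 and 1069 CPM in PaPE-1 livers, against 486, 479 and 461 CPM in vehicle livers (0.97 ± 0.18, length-adjusted 0.99). The vehicle livers of Por were nearly even, and WP11 was the lowest PaPE-1 liver.

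Cyp2c54 had 388, 212 and 481 CPM in PaPE-1 livers, against 80.7, 155.2 and 122.98 CPM in vehicle livers (1.59 ± 0.34), and Cyp2d10 (0.74), Cyp2d22 (0.57) and Cyp1a2 (0.81) rose. The Cyp2a, Cyp2c and Cyp2d families hold close copies, and the share of each copy is uncertain. The exception was Cyp2c55, named after its values were seen, with 4.39, 4.59 and 4.06 CPM in PaPE-1 livers, against 9.13, 6.25 and 7.56 CPM in vehicle livers (-0.81 ± 0.19). Of 21 pericentral hepatocyte genes 3 rose, namely Cyp2e1, Cyp1a2 and Notum (0.76), a secreted Wnt inhibitor, while their median was 0.12. Of 21 periportal and urea cycle genes 0 passed (median 0.13).

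Of 36 glutathione and NRF2 target genes 3 rose and 1 fell, against 3.43% and 2.25% of all genes tested (median 0.12, length-adjusted -0.08). Gclc, the catalytic subunit of the rate-limiting enzyme of glutathione synthesis, had 170, 211 and 176 CPM in PaPE-1 livers, against 266, 309 and 284 CPM in vehicle livers (-0.63 ± 0.14, length-adjusted -0.55). Superoxide dismutase Sod1 rose by 0.65, the peroxiredoxin Prdx5 by 0.49 and the transferase Gstt2 by 0.70, and Sod1 was 0.25 length-adjusted. Gsta1 had 0.593, 0.435 and 0 CPM in PaPE-1 livers, against 1.85, 1.17 and 2.60 CPM in vehicle livers and did not pass (adjusted p = 0.0515). The groups did not overlap for Gsta1, which rested on few reads in every liver.

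Mouse liver expresses many genes at sex-dependent levels. Of 35 female-biased genes 4 rose and 2 fell (median 0.20), and of 29 male-biased genes 2 rose and 0 fell (median 0.47, length-adjusted 0.27, and 0.25 without WP24). On the female side Cyp2b13 had 602, 681 and 641 CPM in PaPE-1 livers, against 378, 437 and 346 CPM in vehicle livers (0.73 ± 0.14), while Prom1 had 7.70, 6.37 and 6.49 CPM, against 17.8, 10.3 and 19.3 CPM (-1.20 ± 0.23), and A1bg fell as given above. On the male side the major urinary protein gene Mup3 had 3418, 3690 and 4139 CPM in PaPE-1 livers, against 1800, 2592 and 2139 CPM in vehicle livers (0.78 ± 0.16). The male-biased organic anion carrier Slco1a1 had 13.7, 4.39 and 17.4 CPM, against 2.23, 3.95 and 1.54 CPM (2.18, adjusted p = 0.0837). Members of both lists stood on both sides of 0.

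The estrogen receptor genes did not pass or could not be tested. Esr1, which encodes ERα, had 39.8, 49.9 and 51.2 CPM in PaPE-1 livers, against 46.2, 32.3 and 33.5 CPM in vehicle livers (0.33, 95% interval -0.03 to 0.69, adjusted p = 0.225, length-adjusted 0.61 with adjusted p = 0.113), and the groups overlapped. Esr2 had 0 counts in all 6 livers and Gper1 had 0, 0 and 0 counts in PaPE-1 livers, against 1, 2 and 1 counts in vehicle livers, and neither could be tested at this depth. A count of 0 allows a level of up to 0.130 to 0.203 CPM (3 counts) in these libraries, counting error only. Of 17 tested genes of estrogen receptors, their coactivators and estrogen- or growth-hormone-responsive signalling 0 passed in either direction (edgeR), with a median of 0.16 (length-adjusted 0.32, and 0.03 without WP24) and a range of -0.481 to 1.503. Of these 17, 3 were higher and 4 lower without overlap between the groups, which is near the share over all genes tested (16.8% higher and 15.6% lower).

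Lipid synthesis genes depended on a single vehicle liver. Of 22 genes of fatty acid synthesis and desaturation 0 passed and 3 had a fold change above 0, and the median of -0.66 became -0.01 when WV7 was left out. Fasn, the fatty acid synthase gene, had 1231, 1011 and 277 CPM in PaPE-1 livers, against 3818, 373 and 879 CPM in vehicle livers (-1.01, 95% interval -3.89 to 1.87, adjusted p = 0.616), and the fold change was 0.43 without WV7. Srebf1, the transcription factor gene above this pathway, had 856, 794 and 540 CPM in PaPE-1 livers, against 828, 452 and 589 CPM in vehicle livers (0.23, adjusted p = 0.584). Both genes overlapped widely between the groups. Elovl5, an elongase, had 871, 1029 and 383 CPM in PaPE-1 livers, against 2158, 1182 and 1344 CPM in vehicle livers without overlap (-1.04, adjusted p = 0.161, and -0.72 without WV7). Elovl2 was -0.58, Scd2 -1.25, Aacs -0.61 and Me1, the malic enzyme that supplies NADPH, -1.28, and none passed.

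Of 25 cholesterol synthesis genes 0 passed and 4 lay above 0, with a median of -0.34 that became 0.07 without WV7. Hmgcs1, which makes HMG-CoA, had 87.7, 101 and 67.2 CPM in PaPE-1 livers, against 295, 130 and 163 CPM in vehicle livers (-1.20 ± 0.31, adjusted p = 0.0639, and -0.77 without WV7). Idi1, an isomerase of the isoprenoid steps, had 1.78, 2.75 and 1.22 CPM in PaPE-1 livers, against 9.65, 2.99 and 4.04 CPM in vehicle livers (-1.50, adjusted p = 0.105). WV7 was the highest of the 6 livers for Fasn, Elovl5, Hmgcs1 and Idi1. Feeding state at harvest is not given in the sources used here, and its part in the WV7 values was not tested.

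For the 2 lipid droplet genes that fell, the fold changes did not rest on WV7, although the calls were lost without it. Of 26 genes of triglyceride synthesis and lipid droplets 0 rose and 2 fell (median -0.07), Cidec as given above and Mogat1, a monoacylglycerol acyltransferase that is induced in fatty liver. Mogat1 had 1.126, 2.366 and 2.703 CPM in PaPE-1 livers, against 5.04, 3.86 and 4.86 CPM in vehicle livers (-1.15 ± 0.30). Without WV7 the fold changes were -1.34 for Cidec and -1.08 for Mogat1. The droplet coat gene Plin3 had 35.6, 48.3 and 34.8 CPM in PaPE-1 livers, against 57.4, 53.7 and 59.4 CPM in vehicle livers (-0.52, adjusted p = 0.0590), and Dgat2, the last enzyme of triglyceride synthesis, had 892, 784 and 768 CPM, against 618, 585 and 572 CPM (0.46, adjusted p = 0.0598). Plin3 and Dgat2 did not overlap between the groups, in opposite directions, and missed the threshold.

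Of 15 genes of fatty acid uptake and PPARG targets 0 passed (median 0.01). The carrier Cd36 had 215, 227 and 210 CPM in PaPE-1 livers, against 315, 280 and 283 CPM in vehicle livers (-0.43, adjusted p = 0.0647), and Pparg, the nuclear receptor that drives Cidec and Mogat1 in fatty liver, had 21.5, 21.3 and 21.8 CPM, against 31.0, 31.2 and 24.9 CPM (-0.43, adjusted p = 0.0682). Both were lower in every PaPE-1 liver than in any vehicle liver. Of the 15 genes 2 were lower and 2 higher without overlap, near the share over all genes tested (15.6% lower and 16.8% higher). Of 33 genes of fatty acid oxidation and ketogenesis 1 rose and 0 fell, against 3.43% and 2.25% of all genes tested (median 0.19, length-adjusted 0.12).

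**Figure D4:**
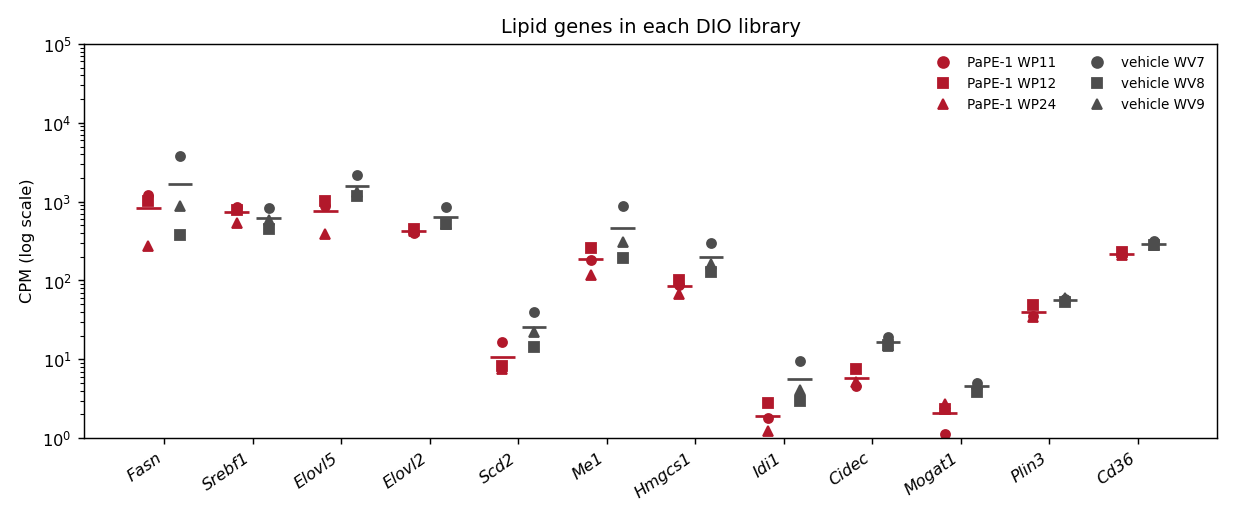
CPM (log axis) of 12 lipid genes in each DIO liver, PaPE-1 left of vehicle, lines at group means. The WV7 point is the highest for Fasn, Elovl5, Hmgcs1 and Idi1, and groups do not overlap for Cidec, Mogat1, Plin3 and Cd36.

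Among 29 genes of glucose handling 2 rose and 0 fell, against 3.43% and 2.25% of all genes tested (median 0.06). Slc37a4, the glucose 6-phosphate carrier that feeds glucose release, had 241, 194 and 197 CPM in PaPE-1 livers, against 143, 126 and 122 CPM in vehicle livers (0.69 ± 0.14, length-adjusted 0.69). Gys2, the liver glycogen synthase, had 285, 283 and 259 CPM in PaPE-1 livers, against 184, 195 and 193 CPM in vehicle livers (0.53 ± 0.12). Both were tight within groups. Of 24 insulin signalling and FOXO1 target genes 1 rose (Igfbp2) and 1 fell (Rictor, a subunit of mTOR complex 2, -0.76 as counted and -0.49 length-adjusted). Of 26 bile acid genes 1 rose (Akr1c6, a reductase of steroids, 0.62) and 1 fell (Abcb11, the bile salt export pump, -0.55, length-adjusted -0.35).

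Genes of cell division had fold changes below 0. Of 31 listed mitosis genes 22 passed the count filter, and of these 0 rose, 3 fell and 0 had a fold change above 0. Without overlap 13 were lower, against 15.6% of all genes tested. A single group could meet the filter, and scarce genes such as Prc1 passed through the vehicle livers only. For such genes a decrease was favoured in advance, so the one-sided counts are no separate support. The median was -0.88, against -0.02 over all genes, and the length adjustment left it at -0.85. The summed level of the list was small in all livers, at 17.2, 17.3 and 12.8 CPM in PaPE-1 livers, against 31.1, 24.8 and 31.4 CPM in vehicle livers. In bulk liver, fewer cells of a type and less RNA per cell cannot be told apart. Over the same genes the median was -0.86 in ob/ob livers, whose 6 libraries are other animals.

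Mki67, the proliferation marker Ki-67, had 1.54, 1.35 and 1.35 CPM in PaPE-1 livers, against 3.56, 3.04 and 3.85 CPM in vehicle livers (-1.30 ± 0.24, length-adjusted -1.02). Prc1, which bundles the microtubules of the central spindle, had 0.119, 0.338 and 0.270 CPM in PaPE-1 livers, against 1.05, 0.911 and 1.16 CPM in vehicle livers (-2.04 ± 0.44, length-adjusted -1.98). Top2a, which untangles replicated DNA, had 1.24, 0.869 and 0.473 CPM in PaPE-1 livers, against 2.42, 2.17 and 2.12 CPM in vehicle livers (-1.35 ± 0.33). These 3 fell, and no PaPE-1 liver reached a vehicle value. Cyclin A2 (Ccna2) had 0.652, 0.435 and 0.135 CPM in PaPE-1 livers, against 1.19, 0.998 and 1.59 CPM in vehicle livers and did not pass (adjusted p = 0.0660). Of 23 DNA replication genes 1 rose (Tk1, thymidine kinase, 0.96) and 1 fell (Mcm2 of the replicative helicase, -1.24), with a median of -0.34 that became -0.09 without WV7 and -0.55 without WV8.

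Promoters of G2/M genes are known for the cell cycle homology region, with the letters TTTGAA, and for CCAAT boxes. The 130 bases before the annotated start of the 3 mitosis genes that fell are shown because all 3 hold that element (RefSeq, GRCm38.p6), 5′ to 3′ on the coding strand, with TTTGAA or its reverse complement TTCAAA in capitals.
Prc1, chr7:80294346-80294475, plus strand: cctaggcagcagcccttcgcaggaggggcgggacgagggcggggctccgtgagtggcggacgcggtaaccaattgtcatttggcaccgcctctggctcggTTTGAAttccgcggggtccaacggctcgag
Top2a, chr11:99024190-99024319, minus strand: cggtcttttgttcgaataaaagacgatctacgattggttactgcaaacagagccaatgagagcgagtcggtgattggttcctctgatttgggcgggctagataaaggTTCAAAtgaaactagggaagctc
Mki67, chr7:135716380-135716509, minus strand: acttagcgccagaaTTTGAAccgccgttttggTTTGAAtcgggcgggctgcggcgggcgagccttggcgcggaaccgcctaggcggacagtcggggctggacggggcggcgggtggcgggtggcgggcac
TTTGAA was searched on both strands in the 300 bases from 250 before to 50 after the start. It was found in 16 of the 19 mitosis genes with a sequence (84.2%) and in 1606 of 10795 tested genes (14.9%). CCAAT, also on both strands, was found in 14 of the 19 (73.7%) and in 42.7% of all genes with a sequence.

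Some collagen and matrix genes fell. Of 28 genes of interstitial collagens and their partners 0 rose and 5 fell, and 5 lay above 0, with a median of -0.60 (length-adjusted -0.44). Of the 28, 15 were lower without overlap, against 15.6% of all genes tested. Col5a3, a chain of fibril-nucleating type V collagen, had 6.46, 12.3 and 6.29 CPM in PaPE-1 livers, against 21.5, 21.7 and 20.3 CPM in vehicle livers (-1.33 ± 0.24, length-adjusted -1.13). Lum, a proteoglycan that binds collagen fibrils, had 6.64, 4.49 and 4.80 CPM in PaPE-1 livers, against 8.70, 10.1 and 12.2 CPM in vehicle livers (-0.96 ± 0.20, length-adjusted -1.07). WP12 was the highest PaPE-1 liver for Col5a3 and the lowest for Lum. Col5a2 (-1.29), Col14a1 (-0.50) and the microfibril gene Fbn1 (-0.75) fell, and Col14a1 was -0.27 and Fbn1 -0.47 length-adjusted.

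The chains of the most abundant fibrillar collagens, named here outside the rule after their values were seen, did not pass. Col1a1 had 18.7, 8.30 and 8.58 CPM in PaPE-1 livers, against 19.9, 18.6 and 37.9 CPM in vehicle livers (-1.10, adjusted p = 0.173). Col3a1 had 63.71, 35.002 and 27.85 CPM in PaPE-1 livers, against 80.5, 76.2 and 126 CPM in vehicle livers without overlap (-1.16, adjusted p = 0.0930). WP11 was the highest PaPE-1 liver and WV9 the highest vehicle liver for both.

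Of 19 basement membrane genes 0 rose and 4 fell (median -0.42, length-adjusted -0.18). Col4a1, a chain of the type IV collagen network, had 21.04, 28.05 and 19.80 CPM in PaPE-1 livers, against 45.9, 40.7 and 43.9 CPM in vehicle livers (-0.92 ± 0.15, length-adjusted -0.67). Col15a1 had 9.54, 9.90 and 11.6 CPM in PaPE-1 livers, against 22.63, 13.93 and 19.98 CPM in vehicle livers (-0.87 ± 0.18), and nidogen Nid1 (-0.74) and agrin Agrn (-0.61) fell. The exonic lengths of these 4 are 5613 to 12783 bases, in the range where the median of all genes was below 0.

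Markers of the cells that make the matrix went in both directions. Of 22 stellate cell and fibroblast markers 0 rose and 2 fell, and 10 had a fold change above 0 and 12 below. Without overlap 4 were higher and 5 lower, near the share over all genes tested (16.8% higher and 15.6% lower). The summed level of the list was 619 to 706 CPM in PaPE-1 livers and 643 to 677 CPM in vehicle livers. The 2 that fell were the contractile genes of activated stellate and smooth muscle cells. Acta2 had 1.60, 1.26 and 0.811 CPM in PaPE-1 livers, against 2.28, 5.12 and 3.95 CPM in vehicle livers (-1.62 ± 0.35), and Tagln had 7.11, 6.32 and 5.68 CPM, against 9.32, 9.55 and 12.8 CPM (-0.73 ± 0.18). Among defining markers, Lrat, the retinyl ester synthase of stellate cells, had 25.5, 25.4 and 30.2 CPM in PaPE-1 livers, against 35.1, 28.7 and 32.5 CPM in vehicle livers (-0.25, adjusted p = 0.247). Pdgfrb was -0.41 (adjusted p = 0.159) and Des, desmin, 0.72 (adjusted p = 0.105), and Lrat and Pdgfrb overlapped between the groups.

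Of 27 liver endothelial markers 0 rose and 2 fell, Vwf (-1.15) and the cadherin Cdh5 (-0.55), at summed levels of 727 to 794 CPM in PaPE-1 and 756 to 808 CPM in vehicle livers. Of 14 resident Kupffer cell markers 0 passed, with sums of 548 to 841 CPM in PaPE-1 and 591 to 768 CPM in vehicle livers. Clec4f had 150, 112 and 171 CPM in PaPE-1 livers, against 112, 133 and 145 CPM in vehicle livers. Of 18 markers of recruited and lipid-associated macrophages 0 passed, with sums of 306 to 592 CPM in PaPE-1 and 374 to 498 CPM in vehicle livers. Of these 18 markers 8 had a fold change above 0 and 10 below. Ccr2, the receptor of recruited monocytes, had 1.90, 1.74 and 0.743 CPM in PaPE-1 livers, against 2.71, 3.17 and 5.58 CPM in vehicle livers (-1.36, adjusted p = 0.0590). Trem2, a marker of lipid-associated macrophages, went the other way with overlap. It had 116, 33 and 86 counts in PaPE-1 livers, against 32, 27 and 72 counts in vehicle livers. Of 18 lymphocyte markers 0 rose and 1 fell, the leukocyte antigen Ptprc (-0.71), and the sum was lower in each PaPE-1 liver, at 28.1 to 48.5 CPM, against 50.2 to 67.0 CPM in vehicle livers. Erythroid genes summed to 173 to 487 CPM in PaPE-1 and 192 to 229 CPM in vehicle livers, and Car1 alone rose (1.14). Of 8 tested adipocyte markers 0 rose and 1 fell (Cidec), and among the defining adipocyte and pancreatic markers Adipoq and Lep had 0 or 1 counts and Prss2 and Cpa1 0 counts in every liver. Other markers of these tissues were present: the adipocyte marker Cfd had 61, 150 and 133 counts in PaPE-1 livers, against 240, 307 and 200 counts in vehicle livers, Retn had 9 counts in WV7 and 0 or 1 elsewhere, and the acinar marker Cela1 had 135 to 192 counts. The part of these cell mixtures in the collagen and mitosis results was not tested.

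**Figure D5:**
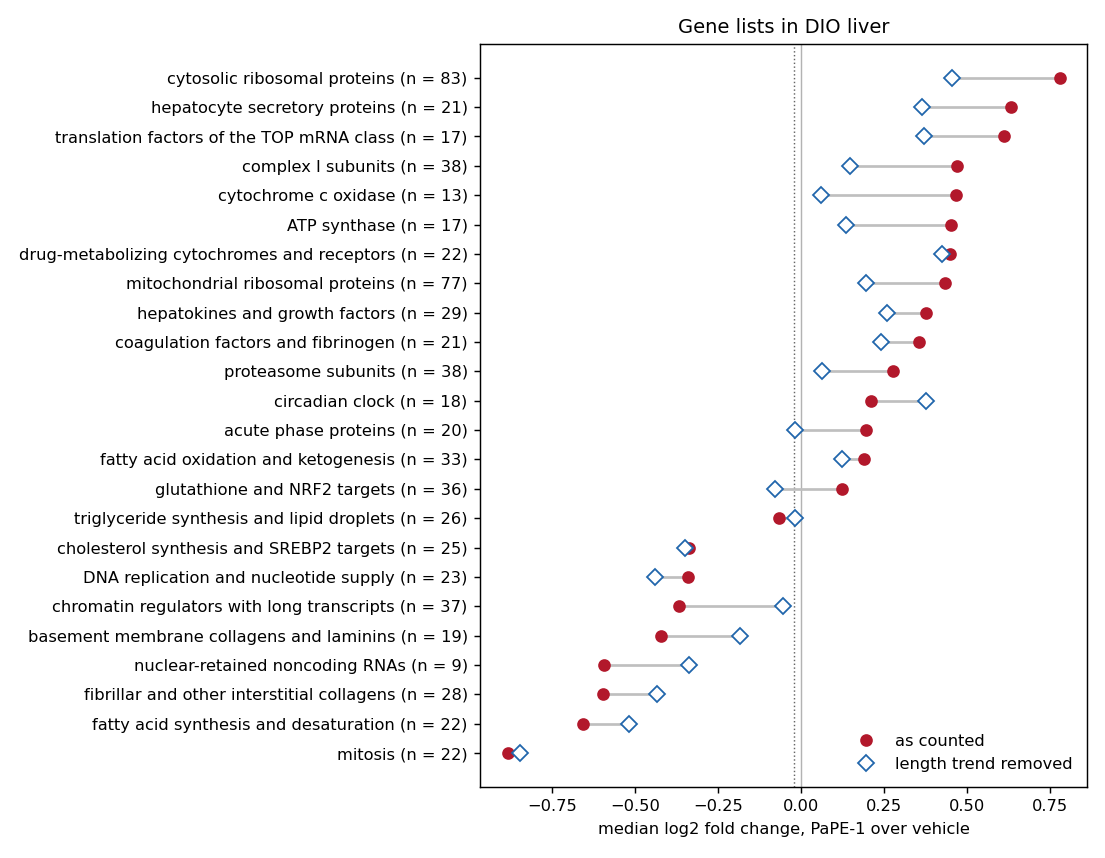
Median log2 fold change (PaPE-1 over vehicle) of 24 gene lists, as counted and with the length trend removed, with the median of all tested genes as a dotted line. Ribosomal proteins go to 0.45 and chromatin regulators to -0.05 when the length trend is removed, while mitosis genes stay near -0.85 and drug-metabolizing cytochromes near 0.42.

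Several nuclear regulators with long transcripts fell, in the direction of the length trend. Of 37 chromatin regulators 0 rose and 9 fell, and the median of -0.37 was -0.05 length-adjusted, with 3 of 37 genes above 0 as counted and 14 of 37 length-adjusted. Kmt2e had 19.7, 22.7 and 27.3 CPM in PaPE-1 livers, against 41.0, 42.6 and 35.1 CPM in vehicle livers (-0.77 ± 0.15, length-adjusted -0.49). The histone methyltransferase Kmt2d (-0.58) and the mediator subunit Med13 (-0.66) were -0.24 and -0.37 length-adjusted. Of 9 nuclear noncoding RNAs 0 rose and 3 fell, namely Malat1, Xist and Tug1 (median -0.59, length-adjusted -0.34). Malat1 had 104, 106 and 92.1 CPM in PaPE-1 livers, against 172, 203 and 173 CPM in vehicle livers (-0.86 ± 0.13, length-adjusted -0.63). Xist, the RNA of the inactive X chromosome, had 402, 453 and 344 CPM in PaPE-1 livers, against 651, 689 and 603 CPM in vehicle livers (-0.70, length-adjusted -0.37).

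Clock genes moved in both directions. Of 18 clock genes 2 rose and 1 fell, against 3.43% and 2.25% of all genes tested (median 0.21, length-adjusted 0.38). Without overlap 5 were higher and 2 lower, against 16.8% and 15.6% of all genes. Dbp, an output factor of the clock, had 228, 278 and 226 CPM in PaPE-1 livers, against 106, 169 and 142 CPM in vehicle livers (0.81 ± 0.18). Clock itself had 14.2, 14.7 and 15.3 CPM in PaPE-1 livers, against 22.9, 29.0 and 23.1 CPM in vehicle livers (-0.76 ± 0.13, length-adjusted -0.48). Its partner Arntl had 0.770, 0.966 and 1.35 CPM in PaPE-1 livers, against 3.37, 1.91 and 1.88 CPM in vehicle livers without overlap (-1.22, adjusted p = 0.0614). Hours of death are not given in the sources used here, and their part in these values was not tested. Of 16 immediate early genes 2 rose, Ier2 (1.12) and Gadd45a (1.01), and 0 fell. Of 14 glucocorticoid-responsive genes 2 rose, among them Hsd11b1, which regenerates active glucocorticoid (0.61).

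The response to PaPE-1 in DIO livers was compared directly with that in ob/ob livers by an interaction term over 12 libraries, with each effect taken within its own model. In ob/ob livers 0 of 13023 genes passed (edgeR), and 110 higher and 171 lower genes had an unadjusted p below 0.05. Of 13926 genes in the interaction fit 2 were more positive (0.0144%) and 1 more negative (0.00718%) in DIO than in ob/ob livers. For Malat1 the difference was -1.23 ± 0.16 (adjusted p = 0.0153), with 99.8, 93.6 and 103.3 CPM in ob/ob PaPE-1 livers, against 74.0, 74.8 and 79.1 CPM in ob/ob vehicle livers. Its fold changes had opposite signs, -0.86 in DIO and 0.38 in ob/ob livers. For Tspan4 the difference was 1.14 ± 0.16 (adjusted p = 0.0167), with 50.7, 49.5 and 45.1 CPM in ob/ob PaPE-1 livers, against 48.3, 54.3 and 51.3 CPM in ob/ob vehicle livers, which overlapped. For Rpl22l1, a paralog of a ribosomal protein, the difference was 1.31 ± 0.20 (adjusted p = 0.0387). Apart from these 3, no difference between the models passed the threshold, and 0 to 121 passed when a library was left out, the most without WP12.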

How the data were processed

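Liver poly-A RNA was sequenced from 18 mice, and 6 DIO libraries (3 PaPE-1, 3 vehicle) were compared here. The deposited files hold raw read counts per gene. Per the file headers and labels, the authors aligned reads to GRCm39 with STAR 2.7.6a and counted them over RefSeq exons by strand with featureCounts 2.0.0 (the methods text names another pipeline, so which steps shaped these counts beyond the header is not known). Tables of the authors' own comparisons (fold changes, p-values) were not used. Libraries held 16651616 to 21703791 counts.

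Genes were filtered with filterByExpr, scaled by TMM and tested with robust edgeR 4.0.16 quasi-likelihood fits in R 4.3.3, with Benjamini-Hochberg adjustment over all 13604 genes, and every adjusted p in the text is from edgeR unless another tool is named. SE is the absolute log2 fold change over the root of F. CPM are TMM-scaled, and log2 CPM uses a prior count of 2. The length trend was a loess fit (span 0.5) of log2 CPM, relative to the gene mean, on log2 exonic length in each library, entered as an offset. Alternatives were DESeq2 size factors, other count filters, DESeq2 1.42.0, limma 3.58.1 voom, fits over 8 or 9 DIO libraries, an adjusted p of 0.1, and each library left out. The scripts were tested on simulated data.

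Genes are named by rule. At an adjusted p under 0.05, without overlap, symbols other than bare clone or locus IDs with at least 1 CPM in a group gave the 12 largest changes and the 5 smallest p in each direction, to which came genes named by the study, Esr1, Esr2, Gper1 and, from each list, at most 5 by p or, for cell types, the defining markers. Exceptions are said where they occur. The members, the 6-library fit and the gene lists were chosen with earlier results of these data known, and lists share some genes. P-values measure the spread between these livers.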

Additional observations from a re-analysis of the deposited data

Results flagged for a closer look

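For 3 genes the PaPE-1 effect differed between DIO and ob/ob livers by the interaction test over 13926 genes (edgeR, Benjamini-Hochberg). For Malat1 the log2 fold change in DIO minus that in ob/ob livers was -1.23 (adjusted p = 0.0153), and it passed in 8 of 12 fits with a library left out (adjusted p 0.0124 to 0.0797). All 3 DIO PaPE-1 livers were lower than their vehicle livers and all 3 ob/ob PaPE-1 livers were higher.

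For Tspan4 the difference was 1.14 (adjusted p = 0.0167), passing in 6 of 12 such fits (0.0144 to 0.0935). For Rpl22l1 it was 1.31 (adjusted p = 0.0387), passing in 2 of 12 (0.0230 to 0.142). Rpl22l1 had 39.1, 31.0 and 27.1 CPM in DIO PaPE-1 livers, against 19.4, 18.6 and 18.5 CPM in DIO vehicle livers. In ob/ob livers it had 20.3, 20.9 and 17.9 CPM with PaPE-1, against 26.2, 33.4 and 25.2 CPM with vehicle. With the length trend removed the adjusted p was 0.0219 for Malat1, 0.0171 for Tspan4 and 0.159 for Rpl22l1. In that fit 3 genes passed as well, with Map2k6 (adjusted p = 0.0171, edgeR) in place of Rpl22l1.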

How the results depend on the processing

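The main counts were 467 higher and 306 lower genes. With no filter on low counts they were 824 and 644, with DESeq2 851 higher, at an adjusted p under 0.1 1037 and 803, with the length trend removed 8 and 4, in the 9-library fits 0 and 0 by edgeR and 0 and 0 by voom, and in the 8 libraries without the E2 liver WE14 123 and 70. Leaving out a library gave 0 to 617 higher and 0 to 310 lower. Of genes past a 2-fold change (74 higher, 211 lower) there were 159 and 424 with no filter, 49 and 79 with at least 10 counts in every library, and 64 to 145 and 223 to 372 with a library left out. The length slope of -0.165 was -0.181 to -0.147 with a library left out. Genes whose effect differed between the models numbered 3 in the fit reported, 3 or 4 under the other settings, and 0 to 121 with a library left out. They were not the same genes throughout, as Map2k6 stood in place of Rpl22l1 with the length trend removed. Fasn was -1.48 to 0.43 and Cycs -0.14 to 0.23 with a library left out, and of the DIO fold changes printed for single genes only these changed sign. Of the 122 called genes named in the text, 119 kept their call with DESeq2 size factors, 111 of 111 with a value did with DESeq2, 101 with voom, 98 without WP12, 12 with the length trend removed, and 0 in the 9-library fit or without any of the other 5 libraries, with no change of direction. The medians of all 60 lists stayed within the spread between livers with DESeq2 size factors and in the 9-library fit, and with the length trend removed 30 moved by more than that spread, and 14 of the 60 had the opposite sign. Several small medians moved by over 1.5 times with a library left out: complement 0.11 to 0.35, clock genes 0.10 to 0.32, biogenesis regulators 0.02 to 0.14, glucose handling -0.07 to 0.18, lipid droplets -0.15 to 0.07 and periportal genes 0.05 to 0.26. No paired analysis was possible because replicate numbers were given in accession order and pair no animals. The causes of these changes were not tested.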

Other observations

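Several gene groups not described above gave few or no calls. Of 22 small spliceosome subunits 4 rose and 0 fell (median log2 fold change 0.43, length-adjusted 0.19), led by Snrpd2, with 21.8, 18.4 and 22.6 CPM in PaPE-1 livers, against 11.7, 12.6 and 13.9 CPM in vehicle livers, and Lsm6 (0.68), whose transcript is of middle length and whose length-adjusted value was 0.80. Of 38 proteasome subunits 1 rose, the immunoproteasome subunit Psmb10 (0.66), and 0 fell. Of 17 integrated stress response genes 0 rose and 1 fell, the transcription factor Atf5 (-0.53), and of 22 endoplasmic reticulum chaperone and unfolded protein response genes, 29 lysosomal genes, 35 interferon response genes and 24 chemokine and inflammatory genes 0 passed (edgeR), at medians of 0.20, 0.16, -0.02 and 0.03.

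Acute phase genes were uneven between livers. Of 20 genes 1 rose, Serpina3m (0.52). Serum amyloid Saa2, singled out after its values were seen, had 37.5, 32.8 and 26.3 CPM in PaPE-1 livers, against 37.4, 51.0 and 136 CPM in vehicle livers, where WV9 stood apart (-1.21, adjusted p = 0.228, edgeR). Hamp, the iron hormone hepcidin, had 399, 435 and 794 CPM in PaPE-1 livers, against 374, 281 and 220 CPM in vehicle livers without overlap (0.90, adjusted p = 0.107).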
